A study of Caenorhabditis elegans with 2 samples.

Results

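Cell cycle and mitosis genes were examined for chromatin binding of APTF-3, a transcription factor of the AP-2 family, in whole Caenorhabditis elegans. The set held 45 named genes, all of them matched to a single protein-coding gene of the annotation, out of 19973 protein-coding genes on the nuclear chromosomes. The genes were listed by name for their roles, with earlier results of these data known, and were placed in 8 role groups. A promoter window reached from 1000 bp upstream to 200 bp downstream of the annotated 5′ end, and a gene was described by the peak summits, the bases of highest signal, inside it.

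The data came from 1 group of worms with 2 biological replicates, assayed by chromatin immunoprecipitation and sequencing (ChIP-seq) with an antibody to GFP. The strain, OP765, carried the integrated transgene wgIs765, a fosmid copy of aptf-3 fused to TY1, EGFP and 3xFLAG tags together with unc-119(+), in an unc-119 (tm4063) mutant background. All worms were young adults of 64 h, synchronised by bleaching and starvation as L1 larvae, and their chromatin was sonicated to 200 to 800 bp. There was no untagged strain and no second stage or condition, so levels could not be compared between conditions. Whole animals were pooled, so weak occupancy in many cells and strong occupancy in few cannot be told apart.

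Progress through the cell cycle is driven by cyclin-dependent kinases, which are switched on by cyclins and by CDC25 phosphatases and held back by inhibitors of the Cip/Kip family. Licensing factors load the MCM helicase on DNA before it is copied, kinetochore proteins tie chromosomes to spindle microtubules, and the anaphase-promoting complex ends mitosis by marking cyclins and securin for destruction. In the adult worm the dividing cells are mainly those of the germline and of the embryos it carries. The assay measures binding of the tagged protein and gives no RNA level for any of these genes.

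The authors' list of thresholded peaks for the series, made from both replicates and called the main list here, held 785 peaks, and a stricter conservative list held 675. Each replicate also had a thresholded list of its own, with 178 peaks in replicate 1 and 241 in replicate 2. Peaks in these lists have an irreproducible discovery rate (IDR), a measure of how repeatable a peak's rank is, of 0.01 or less. A ranked list of 99784 peaks stands behind the main list and includes weak sites. Signals are given in the authors' units, whose definition is not in the labels or headers, and read depth is unknown.

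Main-list summits fell in the windows of 3 of the 45 genes, or 6.67%, against 1.49% of all protein-coding genes (298 of 19973). They were cdc-25.3, a CDC25 phosphatase gene, zen-4, which encodes the kinesin-6 motor of the central spindle, and knl-3, which encodes a protein of the KMN network at the kinetochore. The conservative list held summits at cdc-25.3 and zen-4, or 4.44% against 1.38% of all genes. The replicates' own lists each held a summit at cdc-25.3 alone, or 2.22% of the 45 genes, against 0.416% of all genes in replicate 1 and 0.486% in replicate 2. These counts are too small to rank the set against other genes, and no test was made on them. No member in the cyclin, kinase, licensing or anaphase-promoting complex groups had a summit of any of the 4 thresholded lists in its promoter window. With a main-list summit at only 1.49% of all genes, this absence does not set these groups apart. Main-list peaks of cya-1 and cye-1 outside the window are described below.

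The cdc-25.3 peak was the strongest of the set. It spanned chrIII:8918053-8918348 (ce11) and had a signal of 108.9 in the main list. Its summit lay 272 bp upstream of the 5′ end of cdc-25.3, a gene on the minus strand, in intergenic sequence. At this site replicate 1 gave 52.4 and replicate 2 gave 57.3 in their own lists, and both values passed the threshold there. Of all 19973 genes, cdc-25.3 ranked 50th by the highest ranked-list signal in its window. The peak ranked 106th of 785 in the main list. No 5′ end of another gene lay closer to the summit, no other protein-coding gene had the summit in its promoter window, and the nearest tRNA, snoRNA, snRNA or rRNA gene was 19566 bp away. In the same window replicate 1 had a second, weak ranked peak with a signal of 5.06, 875 bp upstream.

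The zen-4 peak spanned chrIV:6117837-6118132 and had a signal of 77.0 in both series-level lists. Its summit lay 230 bp upstream of zen-4, on the plus strand. Replicate 1 gave 44.0 and replicate 2 gave 33.4 at the site, the higher value in replicate 1, and neither reached the replicate's own thresholded list. In replicate 1 the −log10 IDR of the site was 1.97, just under the value of 2 that corresponds to 0.01, and in replicate 2 it was 0.686. The gene with the 5′ end closest to this summit was not zen-4 but the snoRNA gene M03D4.78, on the opposite strand, at 109 bp. Summits within 100 bp of a tRNA, snoRNA, snRNA or rRNA gene made up 197 of the 785 in the main list. The part of the snoRNA gene in the zen-4 peak was not tested.

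The knl-3 peak spanned chrV:1868595-1868890 with a signal of 75.6 in the main list, and its summit lay 470 bp upstream of knl-3, on the plus strand. Replicate 1 gave 25.9 and replicate 2 gave 42.5 at this site, so replicate 2 was the higher. Neither value was in a replicate's own thresholded list, with −log10 IDR of 0.461 in replicate 1 and 1.50 in replicate 2. In the ranked list behind the conservative list the same peak had a −log10 IDR of 1.82, and it was absent from the conservative list. The 5′ end of knl-3 lies inside T10B5.3, a gene on the opposite strand, and the summit fell in an annotated 5′ UTR of T10B5.3. A second main-list peak with a signal of 78.6, chrV:1870465-1870760, lay 1400 bp downstream of the 5′ end of knl-3, in a coding exon of T10B5.4. Bases marked as repeats by soft-masking made up 51.4% of the knl-3 peak, 23.3% of the zen-4 peak and 5.41% of the cdc-25.3 peak.

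The cdc-25.3 and zen-4 peaks are printed because they are the sites in the promoter windows found in both series-level lists. Each is 296 bases of the RefSeq WBcel235 assembly, the same assembly as ce11, read 5′ to 3′ on the strand of the named gene. Capitals mark matches, on either strand, to the motifs described further on.
cdc-25.3: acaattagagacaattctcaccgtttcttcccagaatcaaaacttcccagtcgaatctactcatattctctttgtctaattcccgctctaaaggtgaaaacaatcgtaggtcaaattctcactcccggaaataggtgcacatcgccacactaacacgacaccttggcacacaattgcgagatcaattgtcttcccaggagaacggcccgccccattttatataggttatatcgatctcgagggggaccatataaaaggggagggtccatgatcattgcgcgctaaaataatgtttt
zen-4: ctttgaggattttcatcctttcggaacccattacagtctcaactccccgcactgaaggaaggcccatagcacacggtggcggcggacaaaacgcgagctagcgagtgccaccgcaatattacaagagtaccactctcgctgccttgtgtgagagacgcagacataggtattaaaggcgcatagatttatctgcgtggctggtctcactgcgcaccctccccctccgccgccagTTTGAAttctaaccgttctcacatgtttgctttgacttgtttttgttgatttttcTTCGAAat
The cdc-25.3 peak has no capitals and so no match to any motif searched, and the zen-4 peak has TTTGAA and TTCGAA. The knl-3 peak is not printed, since it overlaps an annotated UTR. The GC content was 50% in the zen-4 peak, 43.9% in the cdc-25.3 peak and 38.2% in the knl-3 peak.

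In the full ranked list, 40 of the 45 genes had at least 1 summit in the promoter window, or 88.9%, against 69.8% of all protein-coding genes. The shares were 82.2% (37 genes) against 66.1% in replicate 1's ranked list and 80% (36 genes) against 57.9% in replicate 2's. In the ranked list behind the conservative list all 45 had a summit, against 69.5% of all genes. In the main ranked list the highest signal in the window ranged from 5.52 to 108.9 over these 40 genes, with a median of 30.5. Over the 13947 protein-coding genes with a ranked summit the median was 27.5, with quartiles at 19.5 and 37.0. After cdc-25.3, zen-4 and knl-3 the next value was 51.9, at cya-1. With genes that had no summit counted as lowest, 18 of the 45 genes, or 40%, fell in the upper 25% of all genes. In replicate 1's own ranked list 17 of the 45 were in the upper 25%, in replicate 2's list 19, and 11 were there in both, or 24.4% against 11.9% of all genes. Windows that also hold the 5′ end of another protein-coding gene were more frequent in the set, at 18 of 45 or 40%, than among all genes, at 21.3%. Their part in the higher values was not tested.

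**Figure D1:**
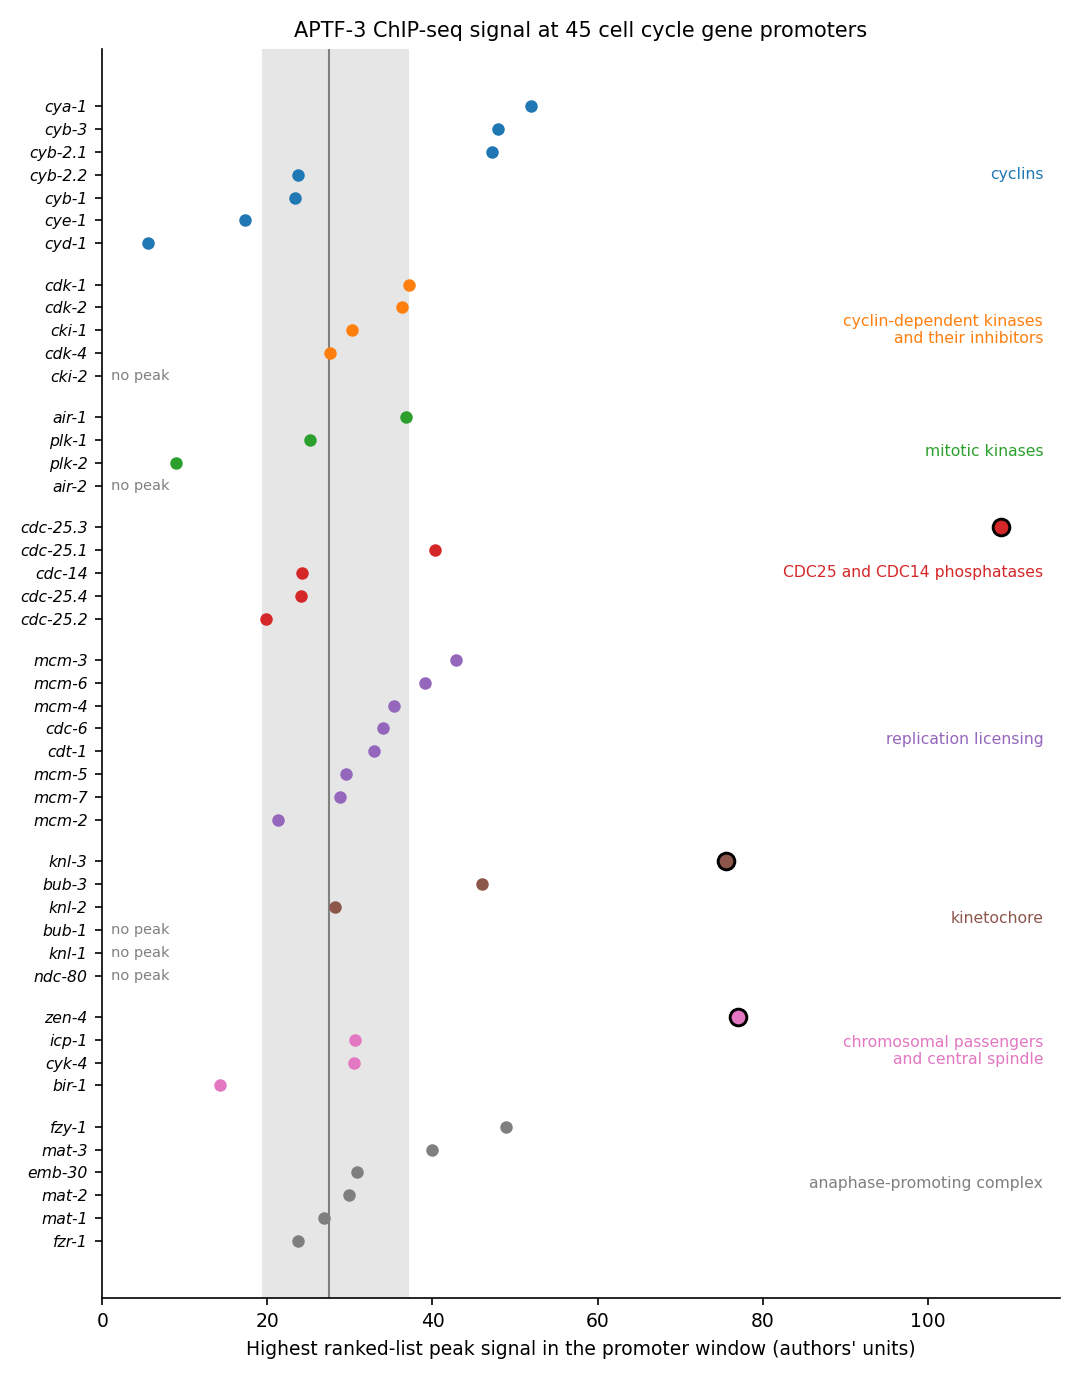
Highest ranked-list signal in the promoter window of each gene (x axis, authors' units), grouped and coloured by role. Points ringed in black had a main-list summit; the grey line and band are the median and quartiles of all protein-coding genes with a ranked summit. The ringed points, cdc-25.3, zen-4 and knl-3, lie between 75.6 and 108.9, and every other gene is at 51.9 or lower.

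**Figure D2:**
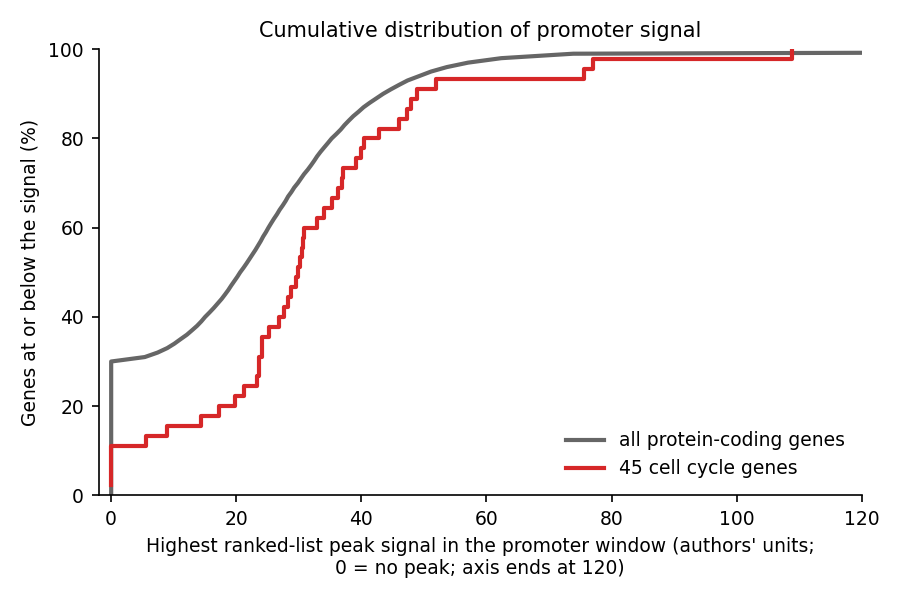
Share of genes (y axis, percent) at or below each signal (x axis, authors' units, with genes lacking a ranked summit at 0) for the 45 genes and for all protein-coding genes. The curve of the 45 genes starts lower, since 88.9% of them had a summit against 69.8% of all genes, and lies below that of all genes up to a signal of about 108.9.

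Among the cyclins, all 7 genes had a ranked summit, from 5.52 to 51.9 with a median of 23.7. The cyclin A gene cya-1 had 51.9, 501 bp upstream of its 5′ end, and the B-type cyclin genes cyb-3 and cyb-2.1 had 47.9 and 47.3. In replicate 1 these genes had highest values in the window of 17.6, 18.3 and 23.5, and in replicate 2 of 28.6, 28.3 and 23.9. The B-type cyclin genes cyb-2.2 and cyb-1 had 23.7 and 23.3, under the median of 27.5 of all genes with a ranked summit. The cyclin E gene cye-1 had 17.3 and the cyclin D gene cyd-1 had 5.52, the lowest value among the 40 genes with a summit in the window. The cye-1 site was matched in neither replicate, and the cye-1 window also holds the 5′ end of pqn-21. The place of cyd-1 depended on the window: from 2000 bp upstream to 500 bp downstream it had 44.9, above cyb-1 at 27.9 and cyb-2.2 at 23.7.

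Of these, cya-1 and cye-1 also had a main-list peak outside the window. For cya-1 it lay 1808 bp upstream, at chrIII:9110932-9111227, in intergenic sequence, and had a signal of 119, above that of cdc-25.3. No 5′ end of another gene of any kind lay closer to its summit than that of cya-1. That peak was in the conservative list as well. For cye-1 it lay 990 bp downstream of the 5′ end, at chrI:6781641-6781936, in an intron, with the tRNA gene WBGene00022955 starting 14 bp away, and had a signal of 71.2. It was absent from the conservative list.

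The cyclin-dependent kinase genes had closer values in the promoter window. The mitotic kinase gene cdk-1 had 37.1, 40 bp upstream of its 5′ end, in a window that also holds the 5′ end of iff-1, which encodes an initiation factor 5A homologue. The gene of its S-phase relative, cdk-2, had 36.3 and cdk-4, which pairs with cyclin D, had 27.6. From 2000 bp upstream to 500 bp downstream cdk-1 had 49.7, with cdk-2 and cdk-4 unchanged. From 500 bp upstream to 100 bp downstream cdk-2 had no summit. The highest values in the window in replicates 1 and 2 were 22.9 and 24.3 for cdk-1, 14.4 and 21.7 for cdk-2, and 7.36 and 17.6 for cdk-4. The replicate 1 value of cdk-4 came from a different place, 897 bp upstream. The inhibitor genes cki-1 and cki-2, neighbours on chromosome II, differed in the main ranked list. There cki-1 had 30.2, 414 bp upstream, and cki-2 had no summit. At this cki-1 site replicate 1 gave 4.66 and replicate 2 had no summit within 100 bp. In the replicates' own ranked lists both genes had a summit in the window. The highest values in replicates 1 and 2 were 11.109 and 18.4 for cki-1, and 8.76 and 12.46 for cki-2. The contrast was thus not one of presence and absence in either replicate.

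Of the mitotic kinase genes, air-1 (Aurora A) had 36.9 and plk-1 (Polo-like kinase) 25.19. The paralogue of plk-1, plk-2, had 8.97, and air-2 (Aurora B) had no summit in the ranked list. With the window of 2000 bp upstream to 500 bp downstream plk-2 had 36.6 and plk-1 still 25.19, so their order turned. The air-1 summit was 85 bp downstream of the 5′ end, in an intron of air-1. It rested on replicate 1, with 25.7, and had no matching summit within 100 bp in replicate 2. For plk-1 the highest value in the window was 24.5 in replicate 1, 191 bp downstream, and replicate 2 had no summit there. At the plk-1 site with 25.19 replicate 1 gave 9.06. For plk-2 the highest values were 6.97 in replicate 1 and 16.0 in replicate 2, so the order of plk-1 and plk-2 differed between the replicates.

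The CDC25 genes ranged widely. Against 108.9 at cdc-25.3, cdc-25.1, known for its role in germline proliferation, had 40.4, 516 bp upstream, cdc-25.4 had 24.1, 880 bp upstream, and cdc-25.2, known for its role in oocyte maturation, had 19.8, 147 bp downstream in an intron. In the wider window cdc-25.2 had 53.6, close to cdc-25.1 at 57.0 and above cdc-25.4 at 27.3, while cdc-25.3 stayed at 108.9 and was still the highest of the group. In replicate 1 the highest values in the window were 52.4 for cdc-25.3, 15.5 for cdc-25.1 and 3.28 for cdc-25.4. In replicate 2 they were 57.3, 20.7 and 8.71, in the same order. Some of these values came from different places. The replicate 1 value of cdc-25.4 lay 6 bp downstream of the 5′ end. The replicate 2 value of cdc-25.1 lay 149 bp downstream, and at the site 516 bp upstream replicate 2 gave 18.4. The cdc-25.2 window held no ranked summit in either replicate's own list. The phosphatase gene cdc-14 had 24.1, in a coding exon, also without a summit in either replicate's list.

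Replication licensing genes lay closer together. All 8 had a ranked summit, from 21.3 to 42.9, with a median of 33.4, and 5 of the 8 were in the upper 25% of all genes. The MCM helicase subunit genes mcm-3, mcm-6 and mcm-4 had the highest values of the group, 42.9, 39.1 and 35.3. This order depended on the window: mcm-3 had 13.8 within 500 bp upstream to 100 bp downstream, and in the wider window cdc-6 had 46.9 and mcm-7 46.6, above mcm-3 at 43.5. The highest values in their windows were 19.7, 11.9 and 15.5 in replicate 1 and 26.1, 33.0 and 27.5 in replicate 2, which was higher at each gene. The loading factor genes cdc-6 and cdt-1 had 34.0 and 32.9, and each was matched at the same site in a single replicate, cdc-6 in replicate 1 with 20.2 and cdt-1 in replicate 2 with 16.0. The lowest of the group, mcm-2, had 21.3, and 34.1 in the wider window.

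The kinetochore group held both high values and absences. Besides knl-3, bub-3, a checkpoint gene, had 45.9, 61 bp downstream of its 5′ end in a coding exon. At this site replicate 2 gave 38.7 and replicate 1 had no summit within 100 bp. The highest value of replicate 1 in the window, 30.3, lay 796 bp upstream. The gene knl-2, whose product acts in loading the centromeric histone, had 28.2. The checkpoint kinase gene bub-1, the scaffold gene knl-1 and ndc-80, which encodes a microtubule-binding subunit, had no summit in the ranked list. The KMN network genes of the set thus had 75.6 at knl-3 and no ranked summit at knl-1 and ndc-80. In replicate 2's own ranked list knl-1 did have a summit with 29.3, 198 bp downstream of its 5′ end, and replicate 1 had 10.2 at a different place, 59 bp upstream.

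Among the passenger and central spindle genes, icp-1 (INCENP) had 30.6, cyk-4, which encodes the GTPase-activating partner of ZEN-4, 30.5 and bir-1 (survivin) 14.3. The centralspindlin pair therefore had 77.0 at zen-4 and 30.5 at cyk-4, and 77.0 and 41.0 in the wider window. The highest values in the promoter window were 44.0 and 13.9 in replicate 1, and closer in replicate 2, at 33.4 and 28.6. The replicate 1 value of cyk-4 came from a different place, 7 bp downstream of its 5′ end. The icp-1 site gave 21.2 in replicate 1 and 7.83 in replicate 2. Directly downstream of icp-1 on the same strand lies tpxl-1, the gene of an Aurora A activator, which had a main-list peak of its own with a signal of 63.9.

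The anaphase-promoting complex genes all had ranked summits, from 23.7 to 48.9, with a median of 30.4. The highest was fzy-1, the gene of the Cdc20 activator, with 48.9, 398 bp upstream in a coding exon of its neighbour F12A10.8. Its values were 26.7 in replicate 1 and 26.4 in replicate 2. The subunit genes mat-3, emb-30, mat-2 and mat-1 had 39.9, 30.9, 29.9 and 26.8, and fzr-1, the gene of the Cdh1 activator, 23.7. This order depended on the window: in the wider window emb-30 had 44.9, above mat-3, and fzr-1 had 35.0, above mat-2 and mat-1. Each of these sites was matched in a single replicate. For mat-3 and mat-1 it was replicate 1, with 26.4 and 20.8. For emb-30, mat-2 and fzr-1 it was replicate 2, with 18.3, 14.5 and 16.5. The mat-3 and emb-30 genes lie 105 and 97 bp downstream of a gene on the same strand. In C. elegans such closely spaced genes can be transcribed as operons, and many mRNAs receive a spliced leader, so an annotated 5′ end need not be the start of transcription. Of the 45 genes, 5 had a same-strand coding gene ending within 500 bp upstream, a count with no share over all genes beside it.

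The strongest ranked summits of the 40 genes had a median position 190 bp upstream of the 5′ end, against 373 bp for all genes with a summit. The second list of cell cycle genes described further on differed in the other direction, with a median of 432.5 bp upstream. Within 200 bp upstream lay 12 of the 40, or 30%, against 15.7% of all genes, and 9 of the 40 were at or downstream of the 5′ end, or 22.5% against 20.9%. By annotation, 25 of the 40 summits were intergenic, 10 lay in a coding exon, 3 in an intron and 2 in a 5′ UTR, of the gene itself or of a neighbour. None lay within 100 bp of a tRNA, snoRNA, snRNA or rRNA gene. No share over all genes stands beside these annotation counts, so they do not set the 40 genes apart. The median GC content within 100 bp of the summit was 42.8% for the 40 genes and 39.8% for all genes.

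**Figure D3:**
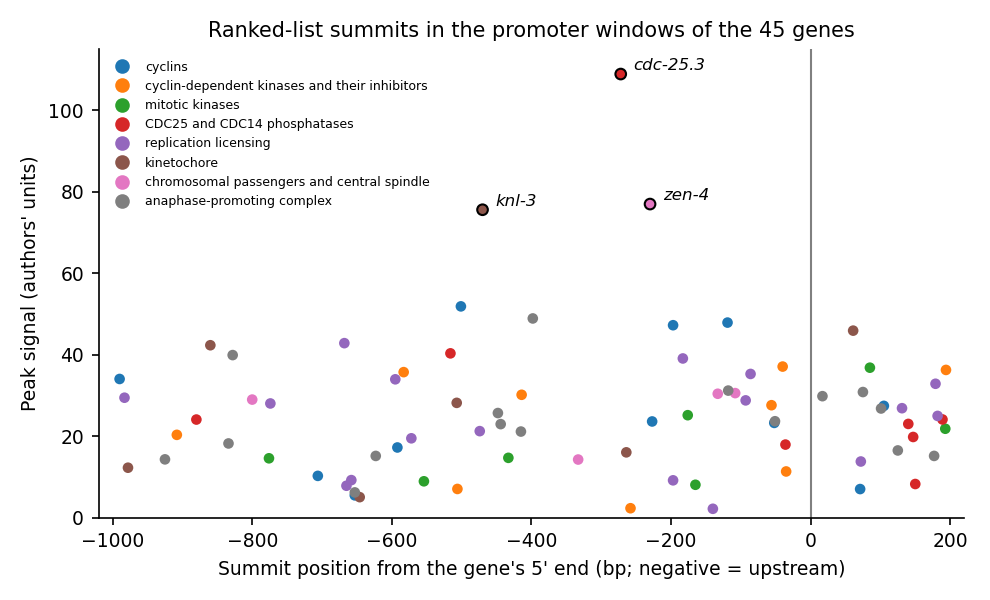
Every ranked-list summit in the promoter windows of the 45 genes, by position from the 5′ end (x axis, bp, negative upstream) and signal (y axis, authors' units), coloured by role. The summits of cdc-25.3, zen-4 and knl-3, ringed in black, lie 272, 230 and 470 bp upstream and stand above all others.

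In the set as among all genes, most of the strongest ranked summits in the windows were not matched in both replicates. Of the 40 strongest summits, 16 had a summit within 100 bp in both replicates' ranked lists, or 40%, against 42.8% of the genes with a ranked summit. Over all genes, with or without a summit, the shares were 35.6% and 29.9%. A further 9 were matched in replicate 1 alone, 10 in replicate 2 alone and 5 in neither, with no shares over all genes beside these counts. An IDR of 0.01 or less was reached by 3 of the 40, those of cdc-25.3, zen-4 and knl-3. The next highest −log10 IDR was 1.24, at cyb-3. A ranked summit with an IDR of 0.01 or less lay in the windows of 6.67% of the 45 genes and 1.5% of all protein-coding genes. Differences among the remaining 37 genes are therefore differences between sites that did not pass the authors' threshold.

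**Figure D4:**
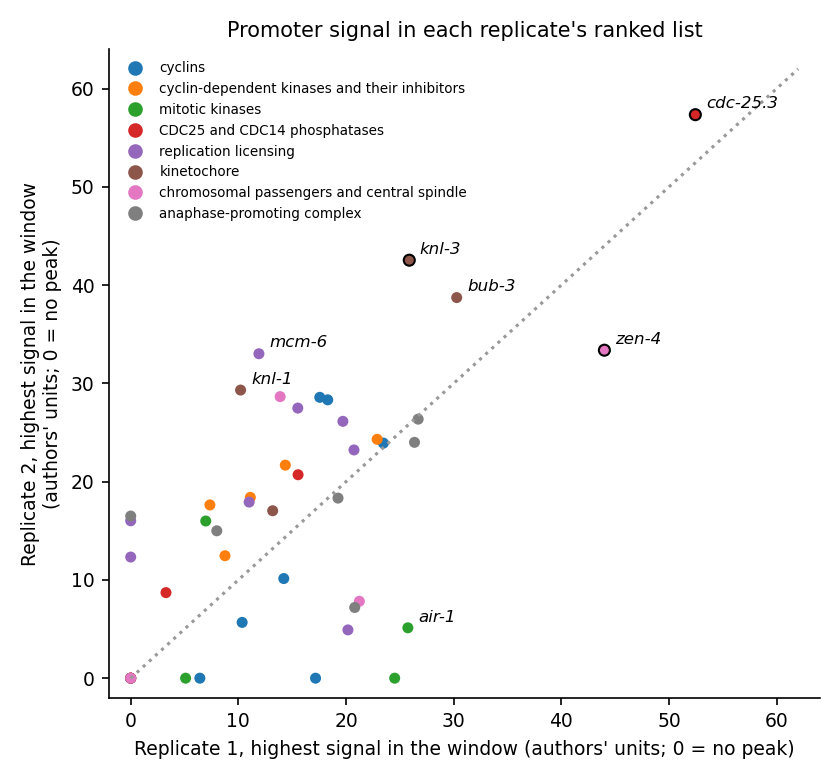
Highest signal in each gene's promoter window in replicate 1 (x axis) and replicate 2 (y axis), in authors' units with 0 for no ranked summit, coloured by role; the dotted line marks equal values and black rings mark genes with a main-list summit. The cdc-25.3 point is highest on both axes at 52.4 and 57.3, and several genes, such as plk-1 at 24.5 in replicate 1, have no summit in the other replicate.

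Other genes of the pathway were counted in the same way. Of a second list of 91 replication, spindle, checkpoint, cohesin and cyclin regulation genes, 87 were found in the annotation under the listed symbol. In that list 3 genes had a main-list summit, or 3.45% against 1.49% of all genes, and 76 had a ranked summit, or 87.4% against 69.8%. The gene cls-2, which encodes a CLASP protein of the kinetochore, had a signal of 108.7, with 60.8 in replicate 1 and 51.0 in replicate 2. Its summit lay 922 bp upstream, closer to the divergent neighbour R107.5, whose 5′ end was 336 bp away. The gene of the replication clamp, pcn-1, had 71.7, 277 bp upstream, with 46.4 in replicate 1 and 26.3 in replicate 2, and tpxl-1 had 63.9, 166 bp downstream in an intron, with 33.6 and 29.3. Of these, cls-2 was in the conservative list and in the list of replicate 1. The median of the highest ranked signal was 30.5 in this list as well, and 34 of the 87 genes, or 39.1%, were in the upper 25% of all genes.

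Promoter windows were also searched on both strands for known motifs. The AP-2 consensus GCCNNNGGC occurred in 4 of the 45 windows, or 8.89%, against 5.31% of all protein-coding genes, at mcm-7, bub-3, bir-1 and mat-1. It lay within 100 bp of the strongest ranked summit at bir-1 alone, 1 of 40 or 2.5%, against 1.68% of all genes, and that summit had a signal of 14.3. The bir-1 window held no summit in either replicate's own ranked list. The peaks of cdc-25.3, zen-4 and knl-3 had no match to it.

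E2F factors, the DNA-binding partners of retinoblastoma family proteins, are known regulators of genes for S phase, and the octamers TTTCGCGC, TTTGGCGC, TTTCCCGC and TTTGCCGC were searched as E2F-like matches. They occurred in 23 of the 45 windows, or 51.1%, against 16.5% of all genes. Within 300 bp upstream of the 5′ end the shares were 35.6% and 5.01%. By role, 6 of the 8 licensing genes and 4 of the 6 kinetochore genes had a match, as did 3 of the 4 passenger and central spindle genes. A match was also found at 3 of the 5 CDC25 and CDC14 genes, 3 of the 5 cyclin-dependent kinase and inhibitor genes and 2 of the 7 cyclin genes. The mitotic kinase group had 1 of 4 and the anaphase-promoting complex group 1 of 6. Within 100 bp of the strongest ranked summit there was a match at 7 of 40 genes, or 17.5% against 4.87% of all genes: cye-1, cdc-25.4, mcm-4, mcm-6, mcm-7, knl-3 and icp-1. Of these, knl-3 alone had a main-list summit, with the match, GCGGCAAA, centred 72.5 bp from it. The windows of cdc-25.3 and zen-4 had none.

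The hexamers TTTGAA and TTCGAA, the form of the cell cycle homology region (CHR) that late cell cycle genes of mammals carry, occurred in all 45 windows and in 98.8% of all windows, so windows of this length did not separate the sets. Within 100 bp of the strongest ranked summit they occurred at 25 of 40 genes, or 62.5%, against 44.3% of all genes. A match is a stretch of letters and not evidence of a bound site.

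**Figure D5:**
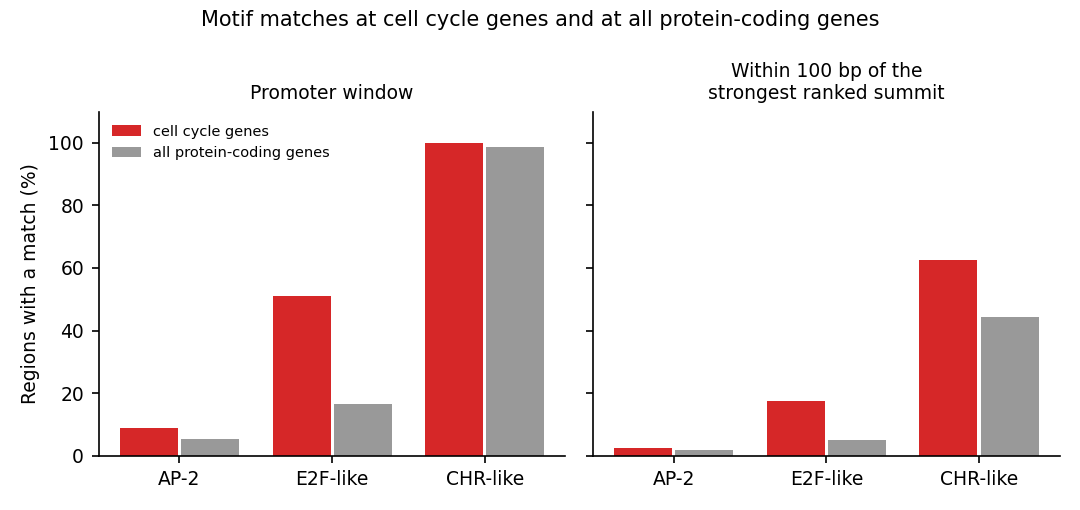
Share of regions with a match (y axis, percent) for 3 motif families in promoter windows (left) and within 100 bp of the strongest ranked summit (right), for the cell cycle genes and for all protein-coding genes. The E2F-like octamers show the widest gap in promoter windows, at 51.1% against 16.5%.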

How the data were processed

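Binding of tagged APTF-3 was measured by ChIP-seq in 2 biological replicates of 1 group, numbered as in the labels. The 8 deposited peak lists on ce11 were used, per the labels and the inventories deposited with them: ranked and thresholded peaks of each replicate, of the series and of its conservative set. Peak signal and −log10 global IDR are the authors' deposited values. The aligner, the caller and the read depth were not given in the sources used here, so no counting interval is given. Tested on the files, all 785 main-list peaks had an IDR of 0.01 or less in the ranked list. In the ranked lists, 16 columns of single inputs were not used.

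Genes came from Ensembl release 115 (WBcel235) and sequence from the RefSeq copy of that assembly, whose chromosomes hold every peak, and coordinates are 1-based. Summits were counted in windows with Python 3.11.15, pandas 2.3.3 and numpy 2.4.6. Sites in different lists were matched within 100 bp. Window counts were tested on simulated summits. The members and lists were chosen with earlier results of these data known, so shares stand beside those of all genes without a test. Named genes were members with a thresholded summit, the 3 highest and the lowest of each role group and members without a ranked peak. Others among the 45 are named to complete their group and were chosen after their values were seen.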

Additional observations from a re-analysis of the deposited data

How the results depend on the processing

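The count of 3 genes with a main-list summit was 2 to 4 with other windows, gene assignments and series-level lists, and the same cdc-25.3, zen-4 and knl-3 were called with 500 bp upstream to 100 bp downstream (0.921% of all genes), with the nearest gene alone, with the 5′ ends of all transcripts, with any overlap of the peak and with all ranked peaks at an IDR of 0.05 (4.09% of all genes). With 2000 bp upstream to 500 bp downstream cya-1 joined them (2.6%), and among the upper 50% of peaks knl-3 was lost (0.861%). With summits in or within 100 bp of the gene body the count was 2, cye-1 and knl-3 (2.12%). Leaving out either replicate, by using the other's own shorter list, gave 1 to 1, cdc-25.3. The median signal was 36.9 with the wider window (33.4 over all genes) and, in the replicates' own ranked lists, 17.2 to 19.6 (15.8 and 17.2 over all genes). With the wider window 18 genes had a higher value than with the main one, and 3 of the 5 genes without a summit gained one. With the narrower window 7 had a lower value and 9 lost their summit, which left 68.9% of the genes with one against 49.2% of all genes. The value of air-1 was 14.7 in the ranked list behind the conservative list, against 36.9. Windows of neighbouring genes overlap and the depth behind the lists is unknown, so an absent peak does not show absent binding. No paired analysis was possible because the data hold 1 group.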

Other observations

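The 5 genes without a summit in the ranked list, cki-2, air-2, bub-1, knl-1 and ndc-80, each had one in the ranked list behind the conservative list, with signals of 4.46, 11.8, 10.9, 13.6 and 10.4. These values lie below the lower quartile of 19.5 of all genes with a summit in the main ranked list.

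A main-list summit lay within 10000 bp of the 5′ end of 10 of the 45 genes, or 22.2%, against 14.3% of all protein-coding genes. Besides the peaks described for cya-1, cye-1, cdc-25.3, zen-4, knl-3 and icp-1, such summits lay near cdk-4, cdc-25.2, mcm-5 and cyk-4. The peak 6877 bp from cdk-4, with a signal of 73.6, had a tRNA gene starting 7 bp away. Those of cdc-25.2, mcm-5 and cyk-4 lay in intergenic sequence 5690, 8910 and 7282 bp away, with signals of 64.5, 67.9 and 70.9.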
